A study of Drosophila melanogaster with 15 samples.

Results

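The 9 arrays of larvae mutant for an NF-kappaB transcription factor were set against the 6 arrays of wild type larvae, over all probe sets other than the Affymetrix controls. These 15 arrays are the whole series, and they were chosen by their source names. The comparison asked which transcripts separated the mutant stocks from the wild type stock whatever had been injected. The mutant groups were larvae with the Relish allele E20, the Dif allele 1 and the dorsal allele 1, all given E. coli according to their treatment text. The wild type groups were larvae given E. coli and larvae given phosphate buffered saline (PBS). Each group had 3 arrays. All larvae were in the third instar, each array carried RNA from a pool of 20 larvae, and RNA was taken 2 h after about 0.1 microliter had been injected.

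Several points limit these groups as models. The titles of all 9 mutant arrays and of the wild type PBS arrays hold the letters ctr, whereas wild type larvae given E. coli have titles with inj, and this conflict with the treatment text is unsettled. The wild type genotype follows from the series design alone, its stock is not named, and 1 wild type stock stands against 3 mutant stocks. A mutation and the genetic background of its stock cannot be told apart. By the treatment text the series holds no PBS-injected mutants, so a difference by injection cannot be seen in any mutant stock. Some arrays share a number in their titles, namely replicates 2 and 3 of wild type with PBS, replicates 2 and 3 of wild type with E. coli, and dorsal replicates 1 and 2, but what such arrays have in common is not stated. The labels do not say whether the pools within a group were raised apart, and the p-values therefore cover only the spread seen between these pools, which may be technical.

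Relish, Dif and dorsal are the NF-kappaB factors of the fly. Relish acts at the end of the Imd pathway, which responds mainly to peptidoglycan of Gram-negative bacteria, and Dif and dorsal act at the end of the Toll pathway, which responds to fungi and many Gram-positive bacteria. Both pathways switch on antimicrobial peptide genes in the larval fat body, and dorsal also patterns the early embryo. Laboratory stocks kept apart can differ at many other loci, and larvae of the third instar change their salivary gland, cuticle and gut transcripts within hours as they approach pupariation.

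The comparison covered 11427 probe sets with a signal of at least 160 on at least 3 arrays. Array medians lay between 284.85 and 340.5 signal units on the mutant arrays and between 245.5 and 282.8 on the wild type arrays, without overlap. A shift of whole arrays thus runs along with the comparison, and the number of arrays limits the precision. All differences are mutant minus wild type on the log2(signal + 80) scale, with equal weight for each stock and each injection. The added constant makes the change of transcripts with low signals appear smaller. The limma test called 478 probe sets at an adjusted p under 0.05 (4.18% of those tested), 224 higher in the mutants (1.96%) and 254 lower (2.22%). For 89 of them (0.779%) all 9 mutant arrays lay on one side of all 6 wild type arrays, 46 above (0.403%) and 43 below (0.376%). Counted whether called or not, 112 probe sets (0.98%) had no overlap. The median difference of all probe sets was 0.11, or 0.01 after quantile normalization. After that normalization 449 probe sets were called, 367 of them among the 478. Of its calls 79 had no overlap, 63 of them among the 89. The part of the shift of whole arrays in the calls was not tested. The count of 478 became 73 when mutant and wild type means were fitted with the 5 groups as a random block, and 52 of these had no overlap. It was 148 when arrays with 1 title number were averaged, and 297, 288, 289 and 266 without wild type PBS replicate 2, wild type PBS replicate 3, wild type E. coli replicate 2 and wild type E. coli replicate 3.

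The 89 probe sets without overlap hold 75 with 1 gene symbol, 37 higher and 38 lower. Their median absolute difference was 1.05, and 48 exceeded 1 and 13 exceeded 2. The range over the 3 stock means was under 0.5 for 51 of them, with a median range of 0.43. A lack of overlap itself favours a small spread among the stocks, so nothing is read from these values. A moderated F test among the stocks called 114 of the 478 (23.8%), where it called 5.63% of all probe sets. Of these 114, 7 were among the 89 and 107 among the 389 called with overlap. For 26 of the 478 the differences of the 3 stocks from wild type did not all have the same sign. None of the 89 was called between E. coli and PBS in wild type by limma, where 18 probe sets (0.158%) were. At an unadjusted p under 0.05, 3 of the 89 passed that test, and their lowest adjusted p was 0.0805. With so small a share over all probe sets, a count of 0 was likely in advance. A lack of overlap also favours a small spread among the wild type arrays, so nothing is read from these counts.

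**Figure D1:**
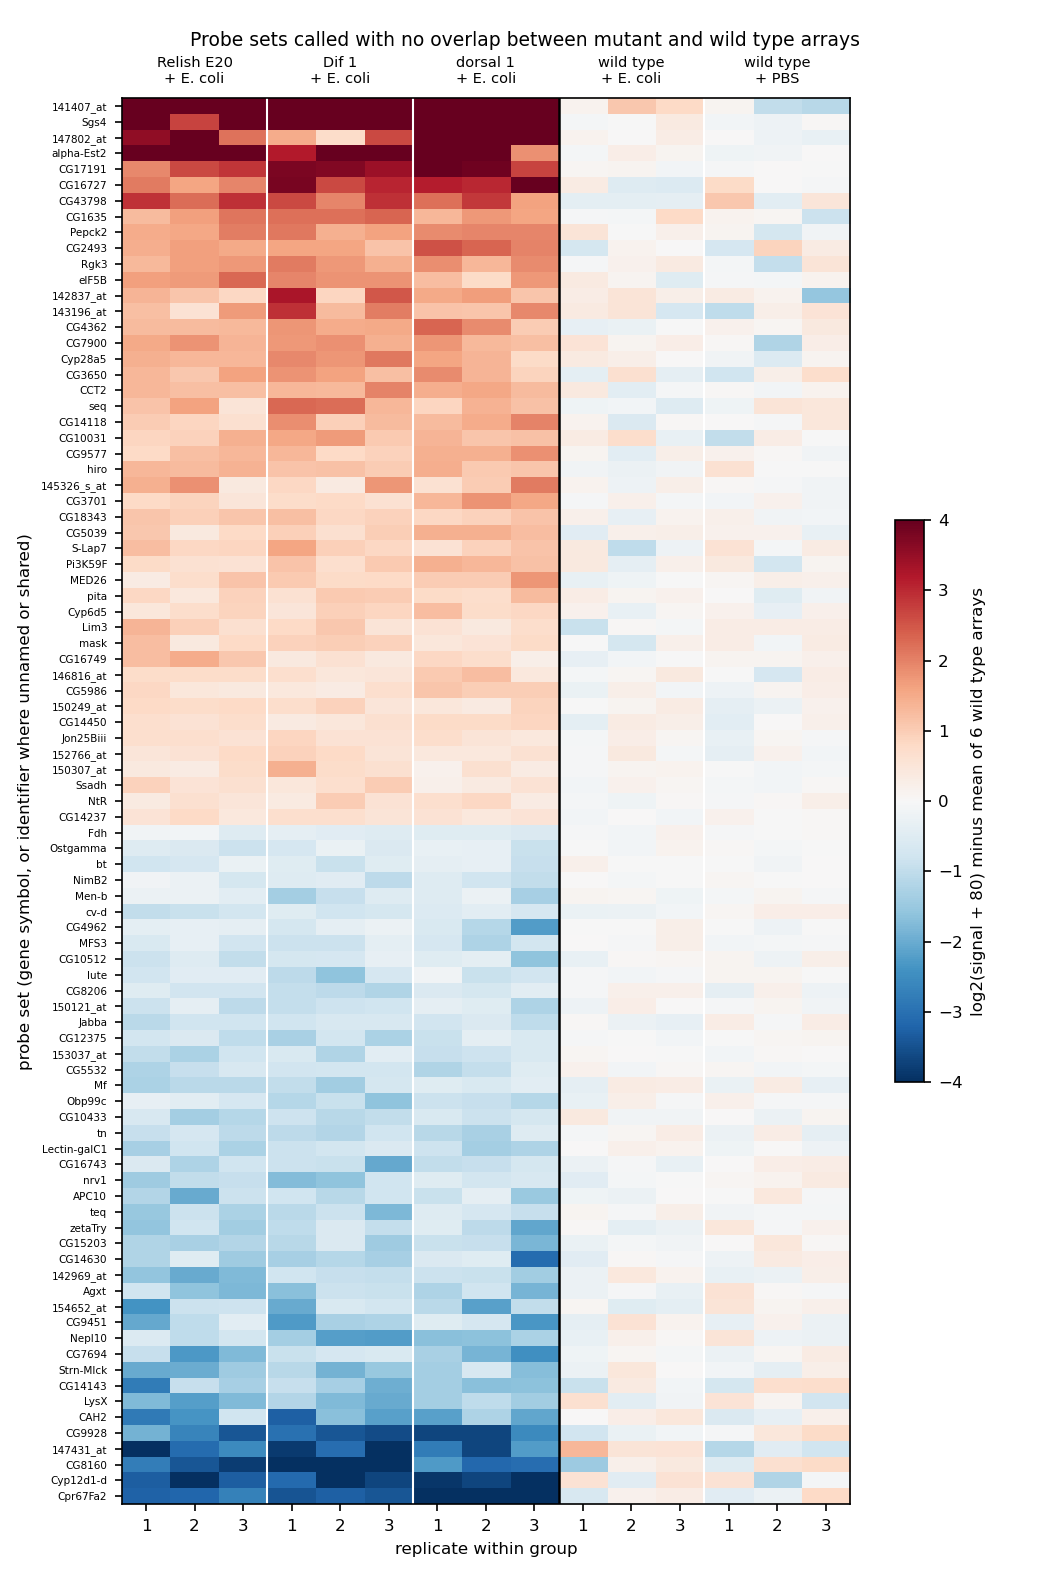
Heat map of the 89 probe sets called with no overlap, 1 row each in order of the difference, over the 15 arrays (columns, mutant stocks left of the black line and wild type right of it). Colour is log2(signal + 80) minus the mean of the 6 wild type arrays and is saturated beyond 4 on either side; the rises on top and the falls below run across all 9 mutant arrays.

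The largest separation belonged to 141407_at, a probe set that the annotation does not name. It read 94122.4, 119969.7 and 113222.7 signal units on the Relish arrays, 127583.6, 123502.7 and 94132.8 on the Dif arrays and 93652.7, 86201.4 and 97777.6 on the dorsal arrays. On the wild type arrays it read 348.7, 741.2 and 596.5 with E. coli and 340.2, 119.9 and 103.3 with PBS. The lowest mutant array was 116 times the highest wild type array. The difference was 8.06 (SE 0.18, limma adjusted p = 3.17e-15), and no difference among the stocks passed the F test (adjusted p = 0.75).

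Sgs4, a gene for a salivary glue protein that fixes the pupal case to its support, was high in mutants and near the floor in wild type. It read 27543.5, 615.2 and 32198.5 units on the Relish arrays, 39620.0, 1793.9 and 7922.6 on the Dif arrays and 23881.6, 30091.1 and 70675.2 on the dorsal arrays. The 6 wild type arrays had a lowest signal of 13.0, a median of 23.7 and a highest of 57.9. Every wild type array was thus below the added constant of 80 and every mutant array above 600, and the difference was 7.02 (SE 0.71, adjusted p = 1.35e-05).

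The other glue genes did not separate the stocks in this way. Sgs3 read 27369.6, 17.3 and 62788.3 on the Relish arrays, 47472.3, 2328.2 and 17991.8 on the Dif arrays and 50989.7, 55341.1 and 95674.4 on the dorsal arrays. In wild type it read 41937.2, 44.8 and 4832.3 with E. coli and 33020.5, 20205.4 and 4415.0 with PBS. Relish replicate 2 and wild type E. coli replicate 2 were the lowest arrays of their genotypes for Sgs3 and for Sgs7. Sgs4 stood at 615.2 on that Relish array, where Sgs3 was at 17.3, and at 20.8 on wild type E. coli replicate 1, where Sgs3 was at 41937.2. Of 7 other salivary gland genes tested (Sgs1, Sgs3, Sgs5, Sgs5bis, Sgs7, Sgs8 and Eig71Ee), 0 were called by limma and 0 passed at an unadjusted p under 0.05, with differences from 0.37 to 1.77. Pig1, a salivary gland gene that neighbours Sgs4, was called at 1.02 (SE 0.16, adjusted p = 0.00106), but the stocks differed (F test adjusted p = 0.000832): 1.38 in the Relish mutant, -0.04 in the Dif mutant and 1.71 in the dorsal mutant.

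In the whole glue list 2 of 12 genes were called higher (Sgs4 and Pig1). Positive differences numbered 11 of 12, against 5608 of 9190 over all genes, and the median was 0.86 against 0.10. The list medians by stock were -0.18, 0.66 and 2.00 in the Relish, Dif and dorsal mutants. Of 9190 genes, 398 were called (4.33%), 187 higher (2.03%) and 211 lower (2.3%). The list median was 1.37 when Relish replicate 2 was left out and 0.22 when wild type E. coli replicate 2 was. The summed signal of the 6 glue markers, which contain Sgs4, ran from 2351 to 539742 over the mutant arrays, with a median of 259903. In wild type it ran from 5423 to 221080, with a median of 110143. Part of this contrast is therefore Sgs4 itself. These are bulk samples, in which fewer cells of a type and less RNA per cell cannot be told apart.

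The largest rise after Sgs4 was that of 147802_at, a probe set that the annotation matches to several genes and that is therefore not named here. It read 1890.2, 4913.8 and 688.5 units on the Relish arrays, 388.7, 201.7 and 971.9 on the Dif arrays and 66109.3, 68482.7 and 10209.2 on the dorsal arrays. Wild type arrays read 106.5, 91.4 and 128.8 with E. coli and 91.6, 67.5 and 59.0 with PBS. All mutant arrays were above all wild type arrays, with the dorsal arrays by far the highest. The difference was 4.29 (SE 0.43, adjusted p = 1.15e-05), with 3.54, 1.61 and 7.73 in the Relish, Dif and dorsal mutants, and the stocks differed by the F test (adjusted p = 9.03e-05). The Dif value was not called (adjusted p = 0.117), and the difference over all mutants was not called with the groups as a random block (adjusted p = 0.0596). The 3 other probe sets without overlap that match several genes were 142837_at (1.57, SE 0.33), 145326_s_at (1.14, SE 0.30) and 153037_at (-0.84, SE 0.16). The call of 145326_s_at was lost without 11 of the 15 arrays, one at a time. These 4 probe sets were chosen after their values were seen.

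The carboxylesterase gene alpha-Est2 showed a similar contrast. It read 2427.2, 3659.6 and 4351.2 on the Relish arrays, 899.3, 3710.0 and 2481.5 on the Dif arrays and 2024.6, 2284.4 and 309.9 on the dorsal arrays. Wild type arrays ranged from 16.5 to 50.7, with a median of 26.4. The groups did not overlap, and the difference was 4.26 (SE 0.36, adjusted p = 1.45e-06). The genes of its cluster did not follow: the 9 other probe sets of alpha-Est3, 5, 6, 7, 8, 9 and 10 differed by -0.24 to 0.41, and 0 were called by limma (1 at an unadjusted p under 0.05).

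CG17191, annotated as a lipase gene, also stood below the added constant of 80 on every wild type array. It read 336.6, 596.1 and 713.7 on the Relish arrays, 1397.4, 1350.2 and 1089.2 on the Dif arrays and 1693.3, 1554.9 and 636.6 on the dorsal arrays, against 20.6 to 37.0 in wild type. Its difference was 3.21 (SE 0.23, adjusted p = 1.99e-07). Sgs4, alpha-Est2 and CG17191 were the 3 probe sets of the 89 with all wild type arrays under 80 and all mutant arrays over 160, and 0 met the reverse condition. CG43798 came close, with 288.8 to 828.0 in mutants (median 671.3) and 10.4 to 14.1 in wild type with E. coli, but 173.3, 9.0 and 87.5 with PBS. Its difference was 2.47 (SE 0.27, adjusted p = 3.07e-05).

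**Figure D2:**
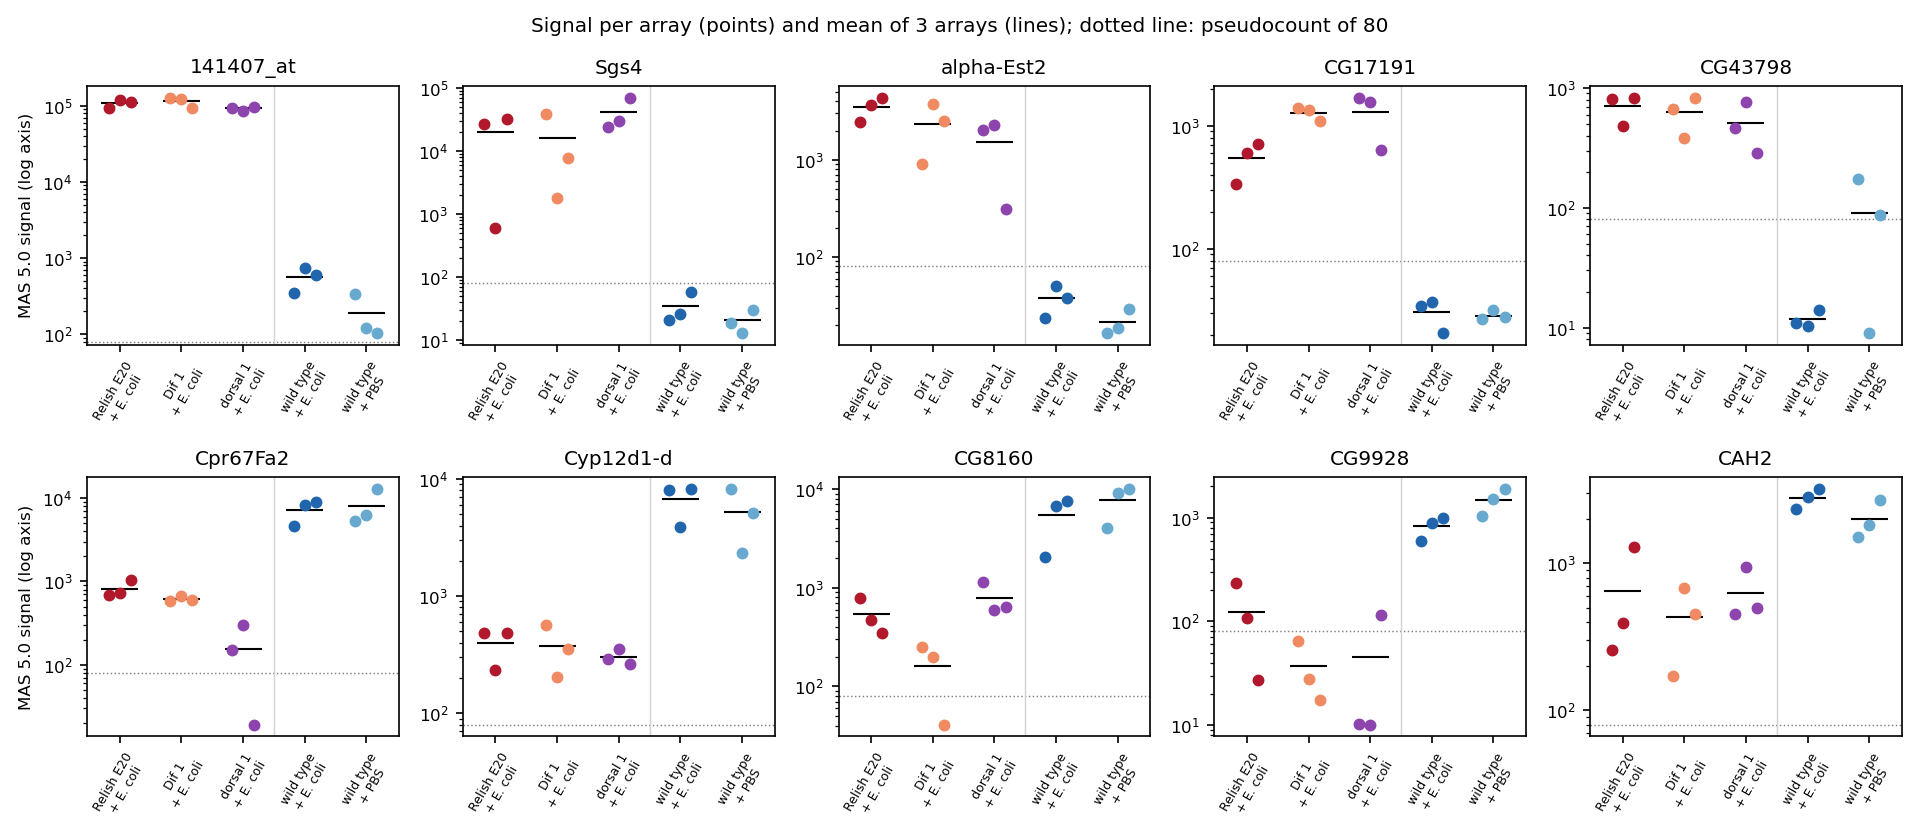
Signal of 10 probe sets on each array (points, log axis) with the mean of each group of 3 (lines), mutant groups left of the grey line and wild type groups right of it. The upper row rises in mutants and the lower row falls, and in each panel the lowest point of one side lies above the highest point of the other.

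The deepest fall was that of Cpr67Fa2, which codes for a chitin-binding cuticle protein. It read 695.5, 728.5 and 1036.6 on the Relish arrays, 590.2, 674.8 and 595.9 on the Dif arrays and 149.2, 296.8 and 19.2 on the dorsal arrays. Wild type arrays read 4647.8, 8160.7 and 8936.7 with E. coli and 5300.9, 6190.5 and 12742.1 with PBS. The lowest wild type array was 4.48 times the highest mutant array, and the difference was -3.86 (SE 0.26, adjusted p = 1.54e-07). The fall was deeper in the dorsal mutant (-5.16) than in the Relish (-3.04) and Dif (-3.39) mutants, and the F test among the stocks gave an adjusted p of 0.00791. Its family neighbour Cpr67Fb differed by 0.11 (adjusted p = 0.879).

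Cyp12d1-d, a mitochondrial cytochrome P450 of the kind linked to insecticide metabolism, fell in every stock to a like level. It read 480.8, 235.3 and 482.3 on the Relish arrays, 565.1, 202.8 and 354.7 on the Dif arrays and 288.5, 353.2 and 263.6 on the dorsal arrays. Wild type arrays ran from 2329.9 to 8166.0, with a median of 6620.8, so the groups were apart by a factor of 4.12 at their nearest. The difference was -3.70 (SE 0.27, adjusted p = 1.99e-07), with -3.57, -3.68 and -3.86 in the Relish, Dif and dorsal mutants. Of the 5 other Cyp12 genes 0 were called by limma (2 at an unadjusted p under 0.05), and they differed by -0.34 to 0.61. Near-identical copies of this gene can share its probes, so which copy was read is uncertain.

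CG8160 and CG9928 fell by more than 3 log2 units as well. CG8160 ran from 41.0 to 1151.5 in mutants (median 467.6) and from 2063.7 to 9963.7 in wild type (median 7146.4), a difference of -3.62 (SE 0.31, adjusted p = 1.78e-06). CG9928 ran from 10.1 to 232.5 in mutants (median 28.0), with 6 of 9 arrays under 80, and from 593.8 to 1878.4 in wild type (median 1011.8). Its difference was -3.10 (SE 0.28, adjusted p = 2.46e-06). The unnamed probe set 147431_at ran from 46.6 to 378.5 in mutants and from 886.3 to 5300.2 in wild type, at -3.26 (SE 0.28), and its difference between E. coli and PBS in wild type was 1.59 (adjusted p = 0.306). It was the largest such value among the 89, whose median was 0.21.

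CG16727, of a family of organic ion transporters, ran from 1786.5 to 10785.4 in mutants (median 4915.6) and from 348.6 to 969.8 in wild type (median 534.4), a difference of 2.82 (SE 0.22, adjusted p = 8.58e-07). Its stock values were 1.87, 3.16 and 3.42 in the Relish, Dif and dorsal mutants, which differed by the F test (adjusted p = 0.0225). Pepck2, a phosphoenolpyruvate carboxykinase of gluconeogenesis, ran from 3429.6 to 5505.8 in mutants and from 722.7 to 1781.1 in wild type, at 1.78 (SE 0.16, adjusted p = 2.46e-06). The stocks were alike to within 0.25 for it, at 1.69, 1.72 and 1.94. Its relative Pepck1 was not called (-0.86, SE 0.51) and differed among the stocks (adjusted p = 0.00176), with 314.6, 66.5 and 4921.4 units in the dorsal mutant against 7189.3 to 15173.9 in wild type.

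Rgk3, a small GTPase of the Rad family, rose by 1.67 (SE 0.22, adjusted p = 0.000173), from 717.8 to 1282.2 over the mutant arrays against 87.5 to 385.4 in wild type. Cyp28a5, another cytochrome P450, ran from 1319.6 to 3471.8 in mutants and from 484.6 to 989.7 in wild type, at 1.51 (SE 0.16, adjusted p = 1.59e-05). The transcription factor gene seq (sequoia), known from neuron development, was at 164.9 to 752.6 in mutants and 38.2 to 163.9 in wild type, at 1.40 (SE 0.24, adjusted p = 0.00278). The other named rises were CG1635 (1.82), CG2493 (1.76), CG7900 and CG4362 (1.54 each), CG3650 (1.42), CG14118 (1.25), CG10031 (1.24), CG9577 (1.23) and hiro (1.21), and the unnamed 143196_at read 1.54. CG4362 was the most abundant of them, with 18058.2 to 45003.7 units in mutants and 6980.5 to 11575.4 in wild type.

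For 2 of the named rises the other probe sets of the gene did not rise. The translation factor gene eIF5B was called by 1 probe set at 1.66 (SE 0.17), while its others read -0.17 and -0.37. CCT2, a subunit of the cytosolic chaperonin that folds actin and tubulin, was called by 1 probe set at 1.40 (SE 0.15, 5972.7 to 10526.0 units in mutants and 1881.5 to 3364.6 in wild type), while its other read -0.31 (adjusted p = 0.558). Of 7 other chaperonin genes 1 was called (CCT4, 0.51, adjusted p = 0.0375). Among the 13 genes without overlap that had more than 1 probe set tested, 11 of 19 other probe sets had the same sign and 1 was called in the same direction, which was a second probe set of teq (-0.80, adjusted p = 0.0362). Over all called genes, 58 of 82 other probe sets had the same sign and 6 were called in the same direction. Another 2 were called in the opposite direction, both of apolpp, whose 2 probe sets read -0.54 (adjusted p = 0.0447) and 0.59 (adjusted p = 0.0356). The other probe sets of Rgk3 (0.67), PPO2 (0.59), bol (0.19), LManV (0.16), kay (0.12), ATPsynC (0.00) and Stat92E (-0.26) were not called.

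The remaining named falls were smaller than these. CAH2, a carbonic anhydrase, ran from 172.0 to 1296.9 in mutants (median 451.1) and from 1516.6 to 3189.5 in wild type (median 2507.3), at -2.06 (SE 0.30, adjusted p = 0.000454), and 0 of 10 other carbonic anhydrase genes were called by limma (2 at an unadjusted p under 0.05). The lysozyme gene LysX read 1093.5 to 2586.2 in mutants and 3128.1 to 8439.9 in wild type, at -1.61 (SE 0.21, adjusted p = 0.000184). The 6 other lysozyme genes differed by 0.02 to 0.93 and 0 were called by limma (3 at an unadjusted p under 0.05), although 4 of them were read with probe sets that can bind several family members. Strn-Mlck, a giant muscle protein with a myosin light chain kinase domain, read 68.6 to 304.3 in mutants and 390.7 to 740.1 in wild type, at -1.52 (SE 0.24, adjusted p = 0.000994), while its second probe set read -0.17.

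Among the proteases, Nepl10, a neprilysin-like peptidase, fell by 1.41 (SE 0.19), the trypsin gene zetaTry by 1.10 (SE 0.21) and the serine protease gene teq (Tequila) by 1.06 (SE 0.15). Agxt, an alanine-glyoxylate aminotransferase, fell by 1.28 (SE 0.20), nrv1, a beta subunit of the sodium pump, by 1.03 (SE 0.15) and the galactose-binding lectin gene Lectin-galC1 by 0.99 (SE 0.15). The pump subunit genes nrv2 (-0.45) and nrv3 (-0.02) were not called. The anaphase-promoting complex gene APC10 read -1.05, CG14143 -1.55, CG7694 -1.42, CG9451 -1.31, CG14630 -1.23 and CG15203 -1.16, and the unnamed 154652_at read -1.30. CG16743 was also called, with 730.1 to 2156.0 units in mutants and 2659.8 to 4106.3 in wild type. The call of CG9451 was lost without wild type PBS replicates 2 or 3 or wild type E. coli replicates 2 or 3 (-1.33 to -1.19, adjusted p = 0.0542 to 0.0738). The call of CG14630 was lost without each of those arrays and without Relish replicates 1 or 3 (-1.20 to -1.16, adjusted p = 0.0586 to 0.0828). Of the 40 named rises and falls, 38 kept their calls without each single array and 32 under all 31 alternatives.

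**Figure D3:**
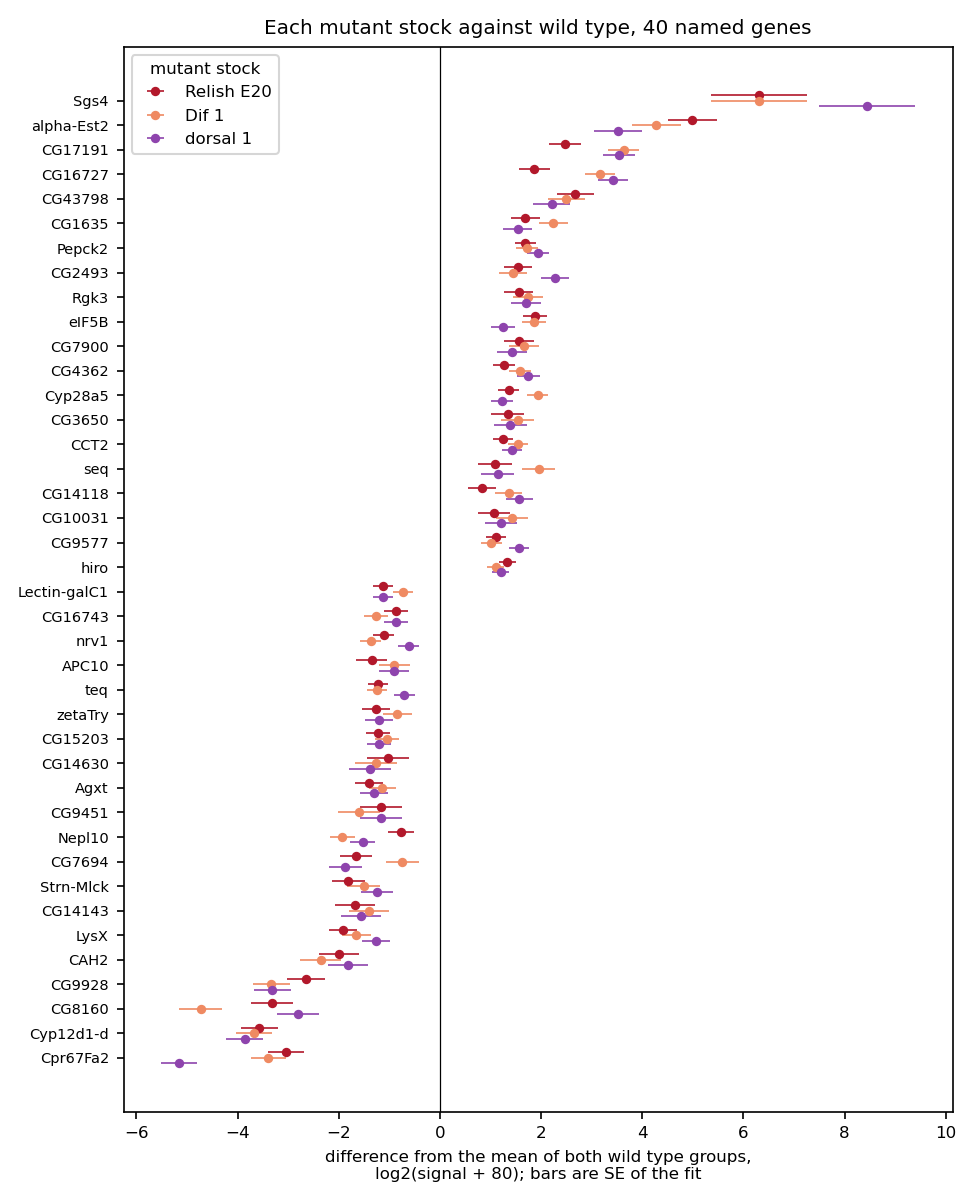
Difference of each mutant stock from the mean of both wild type groups for the 20 largest named rises and 20 largest named falls (points, with the SE of the fit as bars). The 3 stocks share the wild type arrays; all points of a gene lie on the same side of 0, with the widest spreads for Sgs4, Cpr67Fa2 and CG8160.

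Other genes had smaller differences without overlap. Higher in the mutants were Pi3K59F (0.97, SE 0.21), the class III phosphatidylinositol 3-kinase of autophagy and endosomes, MED26 (0.95, SE 0.18), a Mediator subunit, and Lim3 (0.78, SE 0.20), a homeodomain factor of motor neurons. The gut protease gene Jon25Biii stood at 88033.0 to 118390.3 units in mutants and 53333.4 to 78599.3 in wild type, a difference of 0.62 (SE 0.13). Lower were tn (-0.95, SE 0.16), a muscle protein of the TRIM family, Jabba (-0.79, SE 0.14), a protein of lipid droplets, Men-b (-0.64, SE 0.16), a malic enzyme, and Fdh (-0.40, SE 0.11), a formaldehyde dehydrogenase. Fdh had the smallest difference of the 89, with 3625.1 to 4992.1 units in mutants and 5077.7 to 6111.6 in wild type. These genes were named after their values were seen. The second probe sets of MED26 (0.32), Lim3 (0.10) and Men-b (-0.06) were not called.

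Detoxification genes were called in both directions, where 2.03% of all genes were called higher and 2.3% lower. Of 72 cytochrome P450 genes tested 6 were called higher and 3 lower, with a median of 0.05, or -0.06 after quantile normalization. Beside Cyp12d1-d and Cyp28a5, Cyp6a14 was called at -2.25 (SE 0.35) and Cyp28d2 at -1.76 (SE 0.38). Cyp6a14 read 2202.9, 2048.9 and 3181.8 in the Relish mutant, within the wild type range of 1991.0 to 4927.3, and 69.2 to 370.3 in the Dif mutant. Of 31 glutathione S-transferase genes 5 were called higher and 2 lower. GstE1 read 12415.0, 9958.2 and 5896.9 on the Relish arrays, 2034.3, 991.3 and 1213.4 on the Dif arrays and 3292.9, 3388.2 and 2437.8 on the dorsal arrays, against 644.4 to 1639.9 in wild type. Its difference was 1.71 (SE 0.20, adjusted p = 6.34e-05), and the stocks differed (adjusted p = 0.00027). GstE13 (1.61, SE 0.29) was higher in all stocks, at 2.05, 1.08 and 1.70, GstD5 read 1.98 (SE 0.33) and GstD7 -1.74 (SE 0.40). Of 26 UDP-glycosyltransferase genes 2 were called higher and 0 lower, Ugt37A2 (1.07) and Ugt301D1 (0.75), and alpha-Est2 was the 1 called of 13 carboxylesterase genes.

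Cuticle genes were called in both directions. Of 81 tested 2 were called higher and 5 lower (2.03% and 2.3% over all genes). Positive differences numbered 55 of 81, against 5608 of 9190 over all genes. The list median was 0.21, or 0.11 after quantile normalization. Acp1 (-1.68, SE 0.33), Cpr47Ec (-1.36, SE 0.34) and Ccp84Ag (-1.34, SE 0.30) fell most after Cpr67Fa2. Their stock values were deepest in the dorsal mutant, at -2.83, -3.03 and -2.62, and its replicate 3 was the lowest of all arrays for each of them, with 386.7, 442.6 and 165.1 units. Without the dorsal mutant none of these 3 was called. The same array had the highest glue sum (539742), which contains Sgs4, and the highest fat body marker sum (350435). The part of these sums in the cuticle values was not tested.

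Digestive genes also split, where 2.03% of all genes were called higher and 2.3% lower. Of 53 genes for digestive proteases, lysozymes and carbohydrases 2 were called higher and 6 lower, with a median of -0.03. Jon66Cii, a gut serine protease, was called at -1.80 (SE 0.23) with -3.62, -2.02 and 0.23 in the Relish, Dif and dorsal mutants, so that its call did not describe all stocks. The mannosidase gene LManV (-1.31, SE 0.35) and the trypsin gene kappaTry (-1.14, SE 0.29) were also unequal among the stocks, whereas kappaTry's neighbour zetaTry fell in each of them (-1.26, -0.84 and -1.21). The midgut marker sum ran from 285592 to 411250 in mutants and from 159326 to 392064 in wild type. Of 12 alkaline phosphatase genes 2 were called higher and 1 lower. Alp7 read 53.4, 113.4 and 64.1 on the Relish arrays, 25981.6, 17618.2 and 10839.9 on the Dif arrays and 6363.0, 6696.3 and 11296.7 on the dorsal arrays, against 3938.7 to 9917.5 in wild type. The call of -1.44 (SE 0.20) thus came from the Relish mutant, and without it the difference was 0.64 (adjusted p = 0.12).

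In metabolism and muscle the lists held 1 or 2 calls each, where 398 of all 9190 genes (4.33%) were called. The lipase gene Lip3 was called at 1.69 (SE 0.31) and the fatty acid synthase gene FASN1 at -1.14 (SE 0.28), the 2 calls among 16 lipid genes, and FASN1 read -2.93 in the Dif mutant, 0.01 in the Relish mutant and -0.49 in the dorsal mutant. The trehalase gene Treh (0.75, SE 0.14) was the 1 called of 12 sugar metabolism genes, whose median was -0.31. The muscle genes Mf (myofilin) and bt (projectin), 2 of 15 tested, fell without overlap. Mf ran from 7793.8 to 15344.8 in mutants and from 16077.7 to 25964.3 in wild type, at -0.89 (SE 0.15, adjusted p = 0.00219), and bt read -0.58 (SE 0.14) while its second probe set read 0.38. The median of the muscle list was 0.00, and the muscle marker sum was 191768 to 243296 in mutants and 122063 to 254451 in wild type.

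Most respiratory chain genes had differences below 0. Of 66 tested, 0 were called higher and 4 lower, against 2.03% and 2.3% of all genes. The 4 were ATPsyndelta, ATPsynC, ND-B14 and ND-B14.7, at -0.85 to -0.77. Negative differences numbered 52 of 66, against 3582 of 9190 over all genes, and the median was -0.34. At an unadjusted p under 0.05, 36 of the 66 passed, against 1881 of all 9190 genes. The medians by stock were -0.10, -0.22 and -0.71 in the Relish, Dif and dorsal mutants. Of 63 mitochondrial ribosomal protein genes 1 was called lower (mRpL33, -0.74, SE 0.14), with a median of -0.15. Cytoplasmic ribosomal proteins (36 genes, median -0.05) and proteasome subunits (33 genes, median 0.20) had 0 called by limma, with 0 and 11 genes at an unadjusted p under 0.05.

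Blood cell genes were called in both directions, where 398 of all 9190 genes (4.33%) were called. In the crystal cell list 2 of 7 were called, both prophenoloxidases of the melanization cascade: PPO1 at 1.22 (SE 0.16, adjusted p = 0.000173) and PPO2 at 0.74 (SE 0.19, adjusted p = 0.037). The stocks differed for both: PPO1 read 2.21, 0.83 and 0.62 in the Relish, Dif and dorsal mutants, and PPO2 read 1.81, 0.30 and 0.12. The summed crystal cell markers, which contain these genes, were 23811, 27987 and 29160 on the Relish arrays and 7113 to 10758 on the other mutant arrays, against 4298 to 10251 in wild type. Of 20 plasmatocyte and clotting genes 2 were called higher, the clotting factor gene fon (0.81, SE 0.17) and the peroxidasin gene Pxn (0.71, SE 0.16). The Nimrod family gene NimB2, called lower at -0.60 (SE 0.13), had no overlap, with 4104.1 to 7747.0 units in mutants and 8159.9 to 9015.0 in wild type. The hemocyte marker sum, which holds Pxn, was 3485 to 5976 in mutants and 2253 to 3869 in wild type.

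Testis transcripts had the second highest list median, 0.51, with 23 of 27 differences positive (over all genes 5608 of 9190). Of them 2 were called higher and 0 lower, against 2.03% and 2.3% of all genes. The 2 were the sperm leucyl aminopeptidase gene S-Lap7 (0.99, SE 0.21, no overlap) and the meiotic gene bol (0.70, SE 0.17). The testis marker sum ran from 7415 to 17056 in mutants (median 12164) and from 6372 to 16363 in wild type (median 7477), and its part in these values was not tested. Among odorant-binding proteins Obp99c fell without overlap (7285.2 to 18062.4 units in mutants, 18406.3 to 26790.8 in wild type, -0.89, SE 0.14) and Obp99a rose (0.64, SE 0.15). The iron transport gene Tsf3 was called at -1.41 (SE 0.29), 1 of 9 iron genes, but its difference was -0.44 (adjusted p = 0.613) against wild type with PBS only and -2.37 against wild type with E. coli only.

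Several lists had 0 genes called by limma. At an unadjusted p under 0.05 there were 5 of 15 ecdysone response genes, 3 of 14 genes of visible markers such as w and y, 2 of 12 reactive oxygen enzymes, 2 of 9 insulin and FOXO genes, 0 of 9 Npc2 genes, 2 of 8 thioester proteins and scavenger receptors, 1 of 16 Osiris genes and 2 of 5 dosage compensation and female germline genes. Over all genes 1881 of 9190 passed that level and 398 (4.33%) were called. The wound and JNK list had 2 of 16 called lower, ple (-1.59) and kay (-0.72), with a median of -0.14. Against wild type with PBS only neither was called, ple differed by 0.02 (adjusted p = 0.989) and kay by -0.43 (adjusted p = 0.426), and the list median was 0.15, while against wild type with E. coli only it was -0.33. The JAK-STAT list had 1 higher and 1 lower of 5 (Su(var)2-10 at 0.94 and Stat92E at -0.58), and the heat shock list 1 of 13 higher (Hsp27, 1.45, SE 0.37). In the larval serum list 1 of 11 was higher (Obp99a) and 2 were lower, regucalcin (-0.67, SE 0.13) and apolpp by its brighter probe set (-0.54, SE 0.15), while the other apolpp probe set was called higher (0.59). The fat body marker sum was 141483 to 350435 in mutants and 102434 to 168777 in wild type. In the tanning list 1 of 8 was called lower, which was again ple.

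Of the 57 called list members and mutated genes with values here that are not among the 40 largest differences, 25 lost their calls without at least 1 array. They lost them without 2 to 12 of the 15 arrays each, at adjusted p up to 0.137. These are casp, SPE, BomS2, ple, kay, Su(var)2-10, Stat92E, Hsp27, Obp99a, apolpp, Cpr47Ec, Ccp84Ag, GstD7, Ugt301D1, Alp9, LManV, kappaTry, FASN1, bt, bol, Pxn, PPO2, ATPsynC, ND-B14 and ND-B14.7. Leaving out wild type E. coli replicate 3 ended 23 of these calls, and leaving out Relish replicate 2 ended 5, the fewest for any array. Of the 57, 27 were not called against wild type with E. coli only and 42 were not called against wild type with PBS only, comparisons with fewer arrays. For 9 of them the difference against wild type with PBS only was under 0.5 times the value given here, or of the other sign: Rel (-0.73), SPE (-0.14), CecB (0.13), Def (-0.72), DptB (0.33), BomS5 (-0.58), PGRP-SB1 (-1.30), ple (0.02) and Tsf3 (-0.44). Against wild type with E. coli only this held for 0 of the 57.

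**Figure D4:**
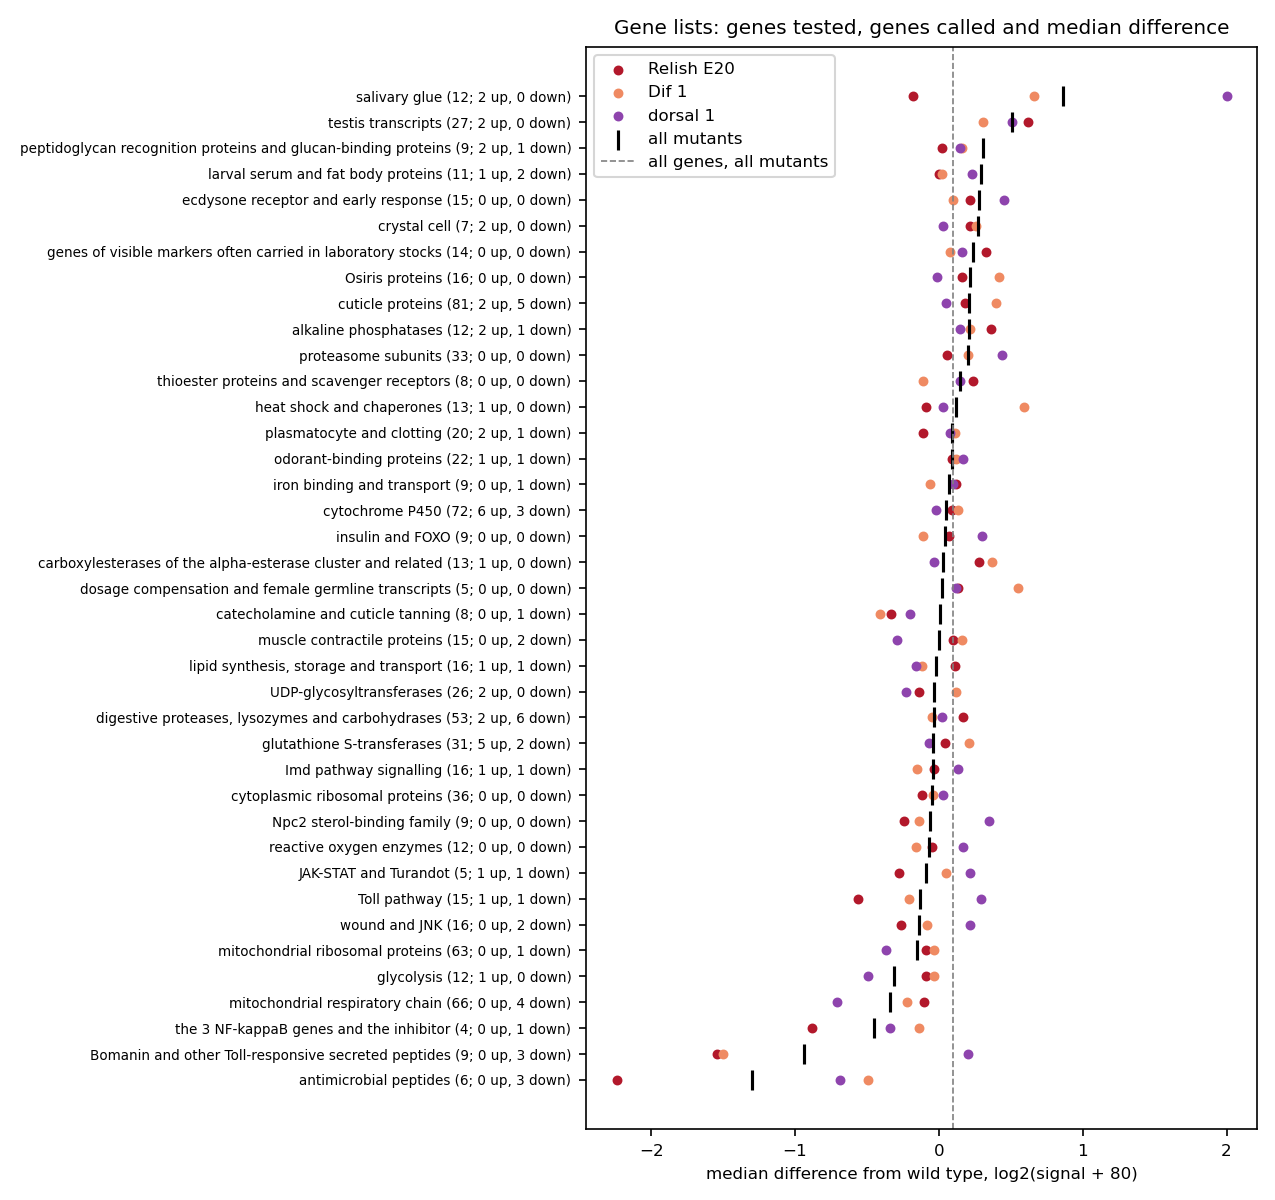
Median difference of each gene list from wild type for each mutant stock (coloured points) and for all mutants (black ticks), with the median of all genes as a dashed line at 0.10; labels give the genes tested and the genes called higher (up) and lower (down). The antimicrobial peptide list lies lowest at -1.30 and the salivary glue list highest at 0.86, and for both the stocks are far apart.

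The values of the immune genes depended on which wild type larvae were used. Of 6 antimicrobial peptide genes 3 were called lower, against 2.3% of all genes. These were CecB (-1.75, SE 0.32), Def (-1.67, SE 0.32) and DptB (-1.40, SE 0.29), and the list median was -1.30. CecB, a cecropin, read 159.1, 42.1 and 165.9 on the Relish arrays, 85.1, 489.8 and 184.4 on the Dif arrays and 364.0, 78.8 and 247.2 on the dorsal arrays. It read 4454.2, 2288.1 and 2749.9 in E. coli-injected wild type larvae and 61.3, 256.3 and 179.7 with PBS, so that the mutant arrays overlapped with PBS alone. Against wild type with PBS only, CecB differed by 0.13, DptB by 0.33 and the list median by 0.13, and against wild type with E. coli only the list median was -2.59.

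The recognition genes were called in both directions. PGRP-SB1, a peptidoglycan amidase, read 40.1 to 94.6 in the Relish mutant, 172.6 to 4237.2 in the Dif mutant and 222.1 to 1717.0 in the dorsal mutant, against 9507.2 to 13335.0 in E. coli-injected wild type larvae and 806.8 to 1467.9 with PBS. Its difference was -2.96 (SE 0.48, adjusted p = 0.00124). Its relative PGRP-SC2, which lowers Imd signalling by cleaving peptidoglycan, was called higher at 1.59 (SE 0.30), with 2.34, 0.54 and 1.88 in the Relish, Dif and dorsal mutants. GNBP3, a glucan sensor of the Toll pathway, was higher at 0.89 (SE 0.19). The Toll pathway list had 1 higher and 1 lower of 15 (GNBP3 and SPE) and the Imd list 1 higher and 1 lower of 16 (casp and Rel). Over all genes 2.03% were called higher and 2.3% lower.

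Of 9 Bomanins and other Toll-responsive secreted peptides 3 were called lower (2.3% over all genes), BomBc2 (-1.52), BomS5 (-1.48) and BomS2 (-1.14). The stocks were unequal for all 3 (F test adjusted p = 0.000424, 0.00172 and 0.0371). BomBc2 read -2.29 in both the Relish and the Dif mutant and 0.02 in the dorsal mutant, and the list medians were -1.54, -1.50 and 0.20. Of the mutated genes Rel was called (-1.85, SE 0.22, adjusted p = 6.34e-05), with 18.9, 11.4 and 27.4 units on the Relish arrays, and it was not called without the Relish mutant. Dif (-0.43, SE 0.27, adjusted p = 0.39) and dl (-0.47, SE 0.29, adjusted p = 0.377) were not called. These differences are averages over the mutant stocks, so they cannot check the labels of the Dif and dorsal arrays.

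Of the 478 called probe sets 12 were also called between E. coli and PBS in wild type, of 18 in all, and all 12 had opposite signs in these comparisons, which share the wild type arrays. With wild type E. coli arrays alone 234 probe sets were called and 189 of these were among the 478. With wild type PBS arrays alone 166 were called and 150 were among the 478. The 89 without overlap lie apart from all wild type arrays, and so from either wild type group alone by definition. Of these 89, 55 kept their calls against wild type with E. coli alone and 60 against wild type with PBS alone. Both comparisons have fewer arrays, so a lost call does not show that a difference depends on the injection.

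**Figure D5:**
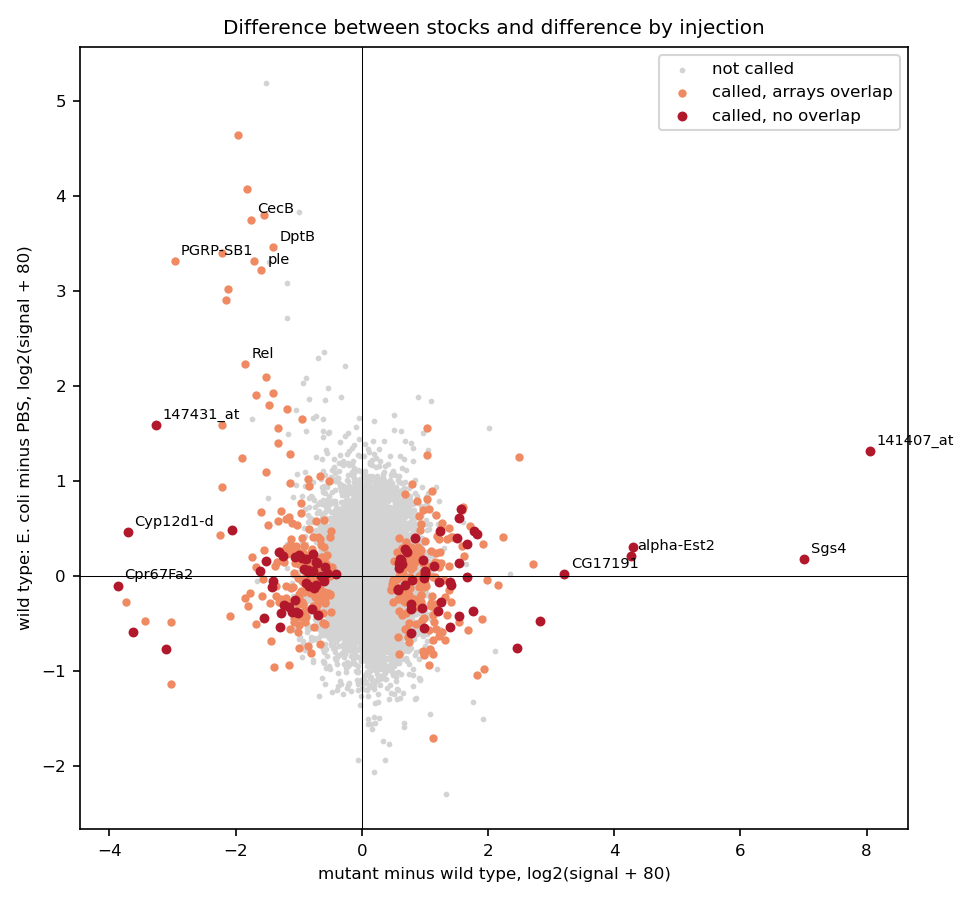
Mutant minus wild type difference (x axis) against the E. coli minus PBS difference in wild type (y axis) for all 11427 probe sets, both on the log2(signal + 80) scale; the axes share the wild type arrays. The red points (called, no overlap) lie within 1.59 of 0 on the y axis, while the immune genes CecB, DptB and PGRP-SB1 lie above 3 on it. A lack of overlap itself favours a small value on the y axis.

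The called genes were also placed in the order of genes in the RefSeq table. There were 18 pairs of called genes that are direct neighbours, 10 of them with the same direction. Of all 9190 genes tested 4.33% were called. The number of such pairs to be met by chance was not computed, so nothing is read from these counts. Pairs with the same direction include Pig1 and Sgs4 (1.02 and 7.02), Ser6 and CG1304 (0.99 and 2.71), CG11912 and CG11911 (1.13 and 1.90), zetaTry and kappaTry (-1.10 and -1.14) and BomBc2 and BomS2 (-1.52 and -1.14). Pairs with opposite directions include Cyp6a14 and Cyp6a13 (-2.25 and 1.42) and bt and MED26 (-0.58 and 0.95). The others with opposite directions were Cht9 and CG10527, CG10527 and Treh, Obsc and CG4324, Jon66Cii and CG7120, nan and nuf, and Ypel and ATPsyndelta. No test of position was made.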

How the data were processed

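Deposited values were intensities, 1 signal per probe set and array of the first Affymetrix Drosophila genome design, which the authors made with Microarray Suite version 5.0 at default settings with global scaling, per the labels. The submitters' processing notes also name MAS5. About 25 micrograms of total RNA were labelled per array. Trimmed means, leaving out 2% at each end, were 800.2 to 800.25 on every array. Detection calls were not used. Of 14010 probe sets 44 controls were left out, and the filter removed 2539 of the other 13966.

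Gene names came from the platform annotation: 12443 probe sets had 1 symbol, 327 several and 1196 none, and 12394 were found in the RefSeq table of the Release 6 assembly, used for names and gene order only. With limma 3.58.1 in R 4.3.3, 1 mean for each group was estimated on the log2(signal + 80) values of all 15 arrays, using eBayes with a variance trend and 10 residual degrees of freedom. Tests were two-sided, with Benjamini-Hochberg adjustment over 11427 probe sets. Contrasts were the mean of the 3 mutant group means minus the mean of both wild type group means, each mutant against that mean, an F test among the mutants, and E. coli against PBS in wild type. A gene with several probe sets was represented in a list by the one brightest on average. The fit was checked on simulated data.

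Named genes were Rel, Dif and dl, the 20 largest rises and 20 largest falls called without overlap and with 1 symbol, up to 4 called members of each list, 2 unnamed rises and 2 unnamed falls, and family neighbours. Family neighbours, the 4 probe sets without overlap that match several genes and the smaller differences without overlap were chosen after their values were seen. The comparison, the gene lists and the markers were chosen with earlier results of these data known. Alternatives were other added constants (16 and 200), no filter or a stricter one, quantile normalization, no variance trend, array weights, blocks, averaging by title number, single wild type groups, and leaving out each stock or each array.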

Additional observations from a re-analysis of the deposited data

Results flagged for a closer look

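Each named probe set was examined for a single array that stood apart within the 9 mutant or the 6 wild type arrays. It was also examined for a difference among the 3 mutant stocks. Chance singles out about 1 in 20 groups of like arrays, and 20 were found in 222 groups. These groups mixed the mutant stocks or the injections, so nothing is read from this count. In the mutants the lowest array stood apart for dl (Relish replicate 1, 35.9 units), GNBP3 (Dif replicate 3, 775.1), CG16743 (Dif replicate 3, 730.1), Tsf3 (Dif replicate 1, 35.4) and Sgs7 (Relish replicate 2, 147.2). Dorsal replicate 3 was the low array for CG14630 (282.8), Acp1 (386.7), Cpr47Ec (442.6), Ccp84Ag (165.1) and Ugt37A2 (283.8). The highest mutant array stood apart for CCT2 (Dif replicate 3, 10526.0) and mRpL33 (dorsal replicate 2, 1551.6). In wild type the arrays that stood apart were E. coli replicate 1 for dl (722.9, high), Ugt37A2 (95.9, low) and ND-B14.7 (3821.9, low), E. coli replicate 2 for Sgs7 (2891.8, low), PBS replicate 1 for hiro (3972.7, high), PBS replicate 2 for CG7900 (46.1, low) and APC10 (1018.3, high), and PBS replicate 3 for 142837_at (28.0, low).

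The 3 mutant stocks differed by the moderated F test of limma for 28 named probe sets. Among the largest differences without overlap these were 147802_at (adjusted p = 9.03e-05), CG16727 (adjusted p = 0.0225), Cpr67Fa2 (0.00791), CG8160 (0.0495) and Nepl10 (0.0498). Among immune genes they were Rel (1.47e-05), DptB (0.0315), BomBc2 (0.000424), BomS5 (0.00172), BomS2 (0.0371), Stat92E (0.00643), PPO1 (0.00137) and PPO2 (0.00362). Detoxification genes were Cyp6a14 (0.00309), GstD5 (0.0115) and GstE1 (0.00027). In gut and metabolism they were Alp8 (0.000592), Alp7 (1.01e-09), Jon66Cii (2.97e-05), LManV (0.0186), kappaTry (0.00322), Lip3 (0.0255), FASN1 (0.00114), regucalcin (0.00137) and Pepck1 (0.00176). The glue gene Pig1 (0.000832) and the cuticle genes Cpr47Ec (0.00845) and Ccp84Ag (0.0233) complete them.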

How the results depend on the processing

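The number of called probe sets (478) was within 1.5 times the main value with a constant of 16 (444) or 200 (505), without the filter (397), with the stricter filter of 320 on 6 arrays (609), after quantile normalization (449, 38.5% of them higher against 46.9%) and without the Relish (451), Dif (418) or dorsal (543) mutant. It was 313 without a variance trend, 866 with array weights, 148 with title numbers averaged, 234 with wild type E. coli only, 166 with wild type PBS only, 73 with the group as a random block (correlation 0.118) and 157 with 2 means and no block, and 266 to 531 without single arrays. The count without overlap (89) was 148 with wild type E. coli only, 188, 172 and 230 without the Relish, Dif or dorsal mutant, 52 with the random block and 78 to 126 without single arrays. The count among stocks (643) was 384 without a trend, 231 with title numbers averaged and 337 to 683 without single arrays, and the injection count (18) was 58 with array weights and 10 to 27 without single arrays. The cause of these shifts was not tested, except that the single wild type groups, averaging and left-out arrays leave fewer arrays.

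Whether the replicate numbers pair the arrays is not settled. Over 30 same-number pairs of arrays from different groups the correlation of deviations ran from -0.106 to 0.34, with 7 above 0.1. Over pairs with different numbers it ran from -0.266 to 0.189. With the replicate number as a block 535 probe sets were called (447 of the 478) and 90 without overlap. The count among stocks was then 742 against 643.

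Of the 40 largest named differences the calls of seq, CG10031, CG14143, CG9451, CG14630, zetaTry, APC10 and CG16743 were lost under at least 1 alternative, mostly with wild type E. coli only. Of 52 named called genes whose arrays overlapped, 50 lost their calls with the random block. Values that changed sign were CecB (0.13), DptB (0.33), ple (0.02) and the uncalled Sgs7 (-0.13) with wild type PBS only, Alp7 (0.64) without the Relish mutant, and the uncalled Sgs7 (-0.02) and Pepck1 (0.67) without the dorsal mutant. Without single arrays Sgs7 ran from -0.02 (wild type E. coli replicate 2) to 1.69 (Relish replicate 2). Of 1209 list medians 16 moved beyond the replicate spread: antimicrobial peptides -2.59 (E. coli only), 0.13 (PBS only) and -0.59 (no Relish), Bomanins -1.51, -0.27, -0.40 (no Dif) and -1.57 (no dorsal), recognition -0.13 (E. coli only), wound -0.33 and 0.15, muscle -0.21 and 0.22, Toll -0.38 and glycolysis -0.11 (no dorsal), and NF-kappaB -0.99 and crystal cells 0.60 (stricter filter). Quantile normalization brought the median of all probe sets to 0.01 and changed the sign of 12 of 39 list medians, none of them above 0.29 in size. With signals near background, as in wild type Sgs4, the fitted size of a difference depends on the constant.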
